A study of Homo sapiens with 19 samples.

Results

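The AP-1 family was followed as 9 genes, FOS, FOSB, FOSL1, FOSL2, JUN, JUNB, JUND, ATF3 and BATF, out of 20033 protein-coding genes that GENCODE places on chromosomes 1 to 22, X and Y of hg38. They were taken by name, not by any measured value, and all 9 were found. For each gene, peaks were sought within 500 bp of any annotated transcription start site (TSS) and within 50 kb of the gene body. The series used chromatin immunoprecipitation with sequencing (ChIP-seq) in human leukaemia cell lines and comprised 19 samples in 16 groups. Lists of regions enriched for acetylation of histone H3 lysine 27 (H3K27ac), a mark of active promoters and enhancers, were used here from 4 lines with 1 library each. HL-60 and Molm13, lines from acute myeloid leukaemia, were untreated. OCI-AML3, another acute myeloid leukaemia line, and K562, a line from chronic myeloid leukaemia in blast crisis with erythroid features, had been given a lentivirus for dCas9-KRAB-mCherry, a catalytically dead Cas9 fused to a repressor domain. They then received an empty sgRNA vector with a BFP reporter and were sorted for mCherry and BFP. All lines grew in the same medium with serum, and the same antibody against H3K27ac was used. Vector and cell line cannot be told apart, and nothing could be tested between lines because there were no replicates.

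AP-1 is a dimeric transcription factor. Its subunits belong to the basic leucine zipper (bZIP) proteins, which grip DNA as pairs held together by a coiled coil. FOS-type proteins must pair with a JUN-type partner, JUN-type proteins can also pair among themselves, and the ATF and BATF types add partners with other preferences. The dimers recognise a short palindrome known as the TRE, searched here as TGANTCA, or a longer one known as the CRE, searched as TGACNTCA. Several of the genes are immediate early genes, transcribed within minutes of a growth or stress signal without new protein synthesis. In blood cells AP-1 is known for its part in monocyte and macrophage differentiation and in signalling downstream of mutated kinases.

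The HL-60 list held 20814 peaks, the Molm13 list 35206, the OCI-AML3 list 37606 and the K562 list 37484. Median peak widths were 893, 1141, 1281 and 1290 bp in the same order. Read numbers were not given, so depth was unknown, and the HL-60 list was the shortest. Bulk chromatin does not tell fewer marked cells apart from less of the mark in each cell. Of 5 erythroid marker genes, K562 had a TSS peak at 5 and each other line at 1, the erythropoietin receptor gene EPOR. Of 6 myeloid markers, Molm13 and OCI-AML3 had TSS peaks at 6, HL-60 at 5, lacking LYZ, and K562 at 3, lacking CEBPA, CEBPE and MPO.

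Promoter sequences of JUN, JUND and BATF are given here, followed by stretches that peaks of several lines had in common. For the promoters, the 250 bases before the start were read from RefSeq (GRCh38.p14), in the direction of transcription, and capitals mark a TGACNTCA match. The BATF promoter is shown because only Molm13 and OCI-AML3 had a peak on it, and those of JUN and JUND because they hold the motif and mostly lay under peaks.
JUN promoter, chr1:58784048-58784297, minus strand: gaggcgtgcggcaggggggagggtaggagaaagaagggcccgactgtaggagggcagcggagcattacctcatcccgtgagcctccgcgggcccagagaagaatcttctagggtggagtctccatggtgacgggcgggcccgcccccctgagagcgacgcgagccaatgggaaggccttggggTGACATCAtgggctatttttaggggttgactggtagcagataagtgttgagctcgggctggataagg
JUND promoter, chr19:18281623-18281872, minus strand: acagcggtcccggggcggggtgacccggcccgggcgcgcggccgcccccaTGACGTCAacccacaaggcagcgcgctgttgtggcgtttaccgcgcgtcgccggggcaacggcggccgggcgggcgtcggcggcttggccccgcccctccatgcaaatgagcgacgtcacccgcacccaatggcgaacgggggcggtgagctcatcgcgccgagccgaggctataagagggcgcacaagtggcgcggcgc
BATF promoter, chr14:75522219-75522468, plus strand: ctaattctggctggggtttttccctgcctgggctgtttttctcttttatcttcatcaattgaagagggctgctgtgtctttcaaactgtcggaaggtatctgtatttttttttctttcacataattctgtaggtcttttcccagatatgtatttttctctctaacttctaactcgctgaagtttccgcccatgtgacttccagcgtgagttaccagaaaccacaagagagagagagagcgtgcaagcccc
The TGACNTCA match began at position -67 from the start in JUN and at position -200 in JUND.

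The next 4 sequences are stretches shared by peaks that lay away from any annotated TSS. They were read from the plus strand of hg38 and hold at most the central 300 bases of what the peaks had in common. Capitals mark a TGANTCA match. The JUN element is shown because all 4 lines had it, Molm13 included, in which the JUN promoter had no peak. The pair near FOSB are the elements common to all 4 lines that hold the AP-1 motif, and the BATF element was listed in Molm13 and OCI-AML3.
JUN, centred at -32.6 kb from the start in an intron of LINC01135, chr1:58816554-58816832: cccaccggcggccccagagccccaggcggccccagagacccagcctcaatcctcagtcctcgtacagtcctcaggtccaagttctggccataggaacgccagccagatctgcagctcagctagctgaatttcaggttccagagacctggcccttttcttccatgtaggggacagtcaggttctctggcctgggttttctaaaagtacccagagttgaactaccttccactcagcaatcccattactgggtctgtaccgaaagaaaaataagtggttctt
FOSB, centred at -28.3 kb from the start in an intron of ERCC1, chr19:45439588-45439852: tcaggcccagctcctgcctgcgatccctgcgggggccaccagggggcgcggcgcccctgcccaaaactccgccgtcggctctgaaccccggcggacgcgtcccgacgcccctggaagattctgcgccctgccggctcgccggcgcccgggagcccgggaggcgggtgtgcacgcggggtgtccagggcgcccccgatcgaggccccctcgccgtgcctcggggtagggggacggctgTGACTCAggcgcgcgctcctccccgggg
FOSB, centred at -11.8 kb from the start in an intron of ERCC1, chr19:45456058-45456357: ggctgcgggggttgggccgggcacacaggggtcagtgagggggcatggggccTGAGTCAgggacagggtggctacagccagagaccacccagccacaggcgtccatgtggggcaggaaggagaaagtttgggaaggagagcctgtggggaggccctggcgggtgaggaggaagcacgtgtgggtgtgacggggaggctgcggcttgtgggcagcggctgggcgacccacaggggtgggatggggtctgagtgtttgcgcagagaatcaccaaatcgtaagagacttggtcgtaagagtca
BATF, centred at -7.15 kb from the start, between genes, chr14:75515173-75515472: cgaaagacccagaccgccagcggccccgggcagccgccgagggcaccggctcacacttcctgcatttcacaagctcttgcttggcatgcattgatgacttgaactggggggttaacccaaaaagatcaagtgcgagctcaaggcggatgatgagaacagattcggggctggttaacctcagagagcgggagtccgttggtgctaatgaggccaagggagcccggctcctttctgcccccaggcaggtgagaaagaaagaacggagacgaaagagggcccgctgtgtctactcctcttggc

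Most AP-1 genes carried H3K27ac at a start site in most lines. A TSS peak was present at 7 of the 9 genes in HL-60 (44.7% of all protein-coding genes had one) and at 8 in Molm13 (53.9%), and at 9 in OCI-AML3 (57.7%) and at 8 in K562 (55.9%). In all 4 lines together 6 members had one, FOS, FOSB, FOSL2, JUNB, JUND and ATF3, beside 40.5% of all protein-coding genes. The other 3 each showed a different gap. FOSL1 had a peak in all lines but HL-60, a pattern held by 7.15% of protein-coding genes. JUN had one in all lines but Molm13, a pattern held by 0.664%. BATF had one in Molm13 and OCI-AML3 only, a pattern held by 2.78%. With 1 library per line, these gaps describe 4 lists and were not tested.

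The members' median TSS peak was wider than that of all genes with a TSS peak in HL-60, Molm13 and K562, but not in OCI-AML3. Where several peaks lay at a gene's starts, the widest was taken. The median width over members with a peak was 2743 bp in HL-60, against 1343 bp over all protein-coding genes with a TSS peak. It was 4727 bp against 1923 bp in Molm13, 2110 bp against 2140 bp in OCI-AML3 and 3577 bp against 2850 bp in K562. Members above the all-gene median numbered 6 of 7, 6 of 8, 4 of 9 and 5 of 8 in the same order. Fold enrichment, the ratio of a peak to its local background as the peak caller gave it, did not stand out in the same way. The H3K27ac lists give no summit, so this value is not read as the height of a peak. The median fold enrichment over members was 6.17 against 5.14 for all genes in HL-60 and 6.52 against 6.3 in Molm13. It was 3.84 against 3.97 in OCI-AML3 and 3.61 against 3.65 in K562. Fold enrichments spanned different ranges in the lists, reaching 21.3, 22.7, 8.68 and 6.91, so each value below is read against its own list.

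**Figure D1:**
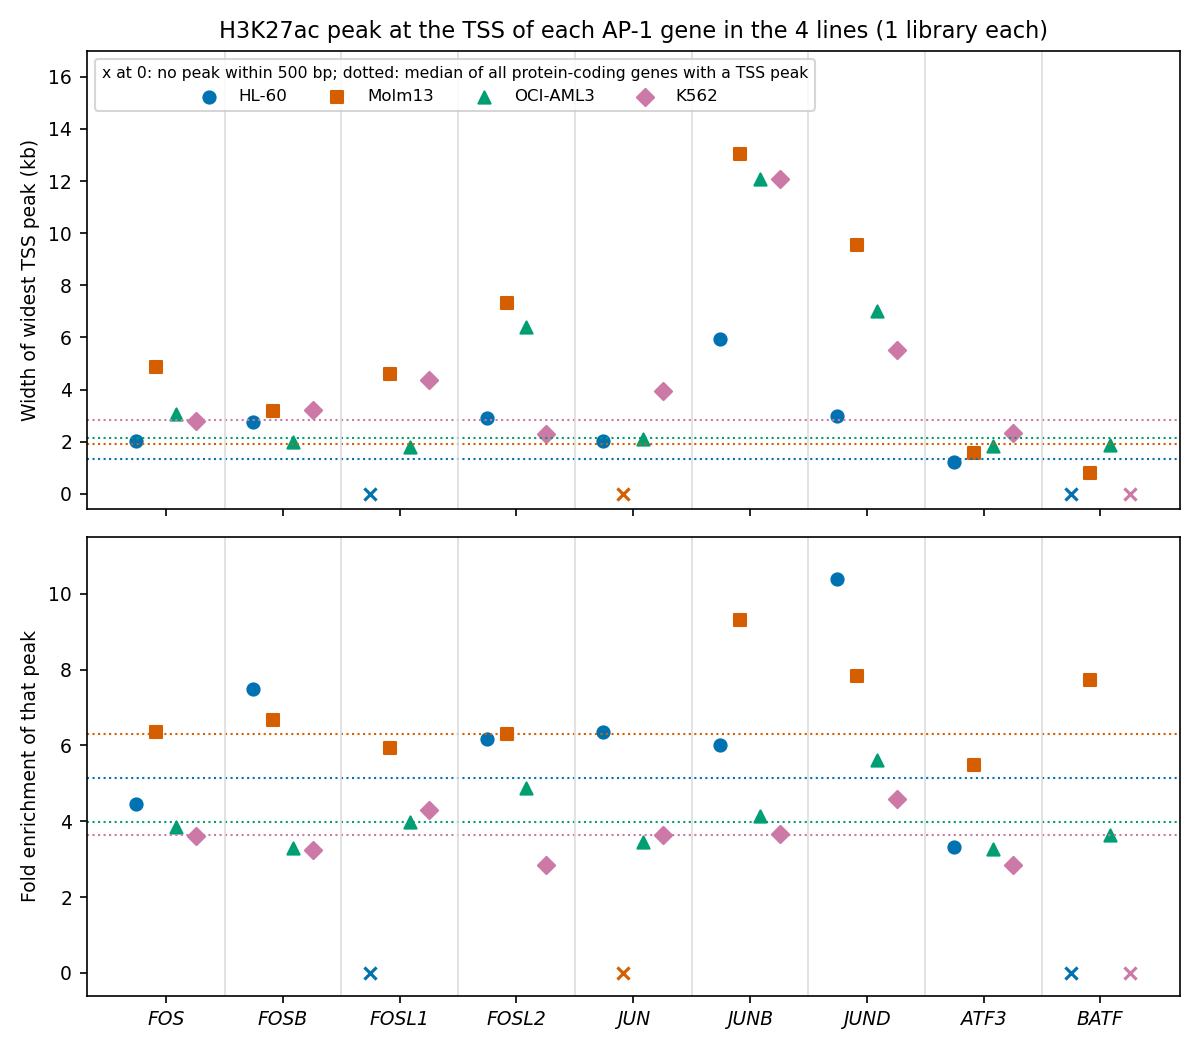
Width in kb (top) and fold enrichment (bottom) of the widest H3K27ac peak within 500 bp of a start of each AP-1 gene, with 1 point per line and crosses at 0 where no peak was listed; dotted lines give the median of all protein-coding genes with a TSS peak in that line. JUNB had the widest peak in each line, from 5933 bp in HL-60 to 13037 bp in Molm13, and BATF the narrowest in Molm13, at 801 bp.

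Among the JUN-type genes, JUNB carried the broadest domain of the family in every line. JUNB encodes a partner of FOS proteins that also restrains proliferation of myeloid progenitors, and its gene has no intron (chr19:12791486-12793315, plus strand). Its TSS peak was 5933 bp wide in HL-60 and 13037 bp in Molm13, and 12098 bp in OCI-AML3 and 12060 in K562, and covered 100% of the gene in each. These widths stood at the 99.1st, 99.0th, 98.3rd and 97.4th percentile of the genes with a TSS peak in the respective list. Their fold enrichments were 6.01, 9.3, 4.15 and 3.66, at percentiles 65.8, 83.9, 56.8 and 50.8. The JUNB peak thus ranked far higher in width than in fold enrichment. It spread mainly upstream, by 10178 bp in Molm13, 9965 bp in K562 and 9266 bp in OCI-AML3 but by 2983 bp in HL-60, where a further peak lay beyond a gap. HOOK2, which encodes a linker between organelles and microtubules, has a start on this side, and the same peak reached it in each line. HOOK2 was therefore the gene with the nearest set of width percentiles, at a distance of 0.0 over the 4 lines. It was followed by MIDEAS at 1.02 and CLIC1 at 1.18 percentile points, on other chromosomes.

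JUND came next, with strong as well as broad peaks. Its product is the JUN-type subunit that most resting cells make, and the gene is also free of introns (chr19:18279694-18281622, minus strand). Peak widths were 2999 bp in HL-60 and 9550 bp in Molm13, and 7023 bp in OCI-AML3 and 5532 in K562, at percentiles 90.6, 97.9, 94.8 and 81.8. Fold enrichments were 10.4, 7.84, 5.61 and 4.6. The highest fold enrichment of any member in HL-60, OCI-AML3 and K562 was that of JUND, at percentiles 96.8, 94.2 and 91.7 of its list, whereas in Molm13 it stood at 70.6. In Molm13 the peak ran 7490 bp downstream of the start, past the end of the gene, and also lay at a start of IQCN. Its width in Molm13 is therefore not that of JUND alone.

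JUN, the founding member and the partner that completes most FOS dimers, lacked a promoter peak in Molm13 (chr1:58776845-58784048, minus strand). Its TSS peak was 2015 bp wide in HL-60, 2110 bp in OCI-AML3 and 3949 in K562. The fold enrichments were 6.36, 3.45 and 3.63, and the widths stood at percentiles 74.9, 49.1 and 67.2. The Molm13 peak nearest to a JUN start lay 31122 bp away, was 1930 bp wide and had a fold enrichment of 4.6 (q = 4.8e-05 from the peak caller). It belonged to the upstream element whose sequence is given above, which was marked in each line over 279 bp in HL-60 and 1930 bp in Molm13, and 2009 bp in OCI-AML3 and 2066 in K562. In K562 that element had a higher fold enrichment than the promoter, 3.96 against 3.63. JUN had few peaks around it otherwise. Within 50 kb there were 4 in HL-60 and 2 in Molm13, and 3 in OCI-AML3 and 4 in K562, and no other gene's TSS lay at any peak that was separate from the JUN promoter.

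Among the FOS-type genes the widest promoter peak was that of FOSL2 in HL-60, Molm13 and OCI-AML3 and that of FOSL1 in K562. FOS encodes the classical partner of JUN and is the textbook immediate early gene (chr14:75278826-75282230, plus strand). Its TSS peak measured 2037 bp in HL-60 and 4848 bp in Molm13, and 3072 bp in OCI-AML3 and 2781 in K562, at width percentiles 75.4, 90.3, 71.4 and 48.8. Fold enrichments were 4.45, 6.35, 3.84 and 3.6. In fold enrichment FOS stood near or below the middle of each list, with percentiles of 34.6, 50.8, 45 and 46.7.

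FOSL2, which encodes FRA2, a FOS-type protein made more steadily than FOS, lay on chromosome 2 (chr2:28392448-28417317, plus strand). The widest TSS peak was 2924 bp in HL-60 and 7320 bp in Molm13, and 6415 bp in OCI-AML3 and 2297 in K562. In HL-60 a second peak of 263 bp sat at a later start. The lines were spread widely, with width percentiles of 96.0 in Molm13 and 93.6 in OCI-AML3 but 38.5 in K562. The K562 peak was also low, with a fold enrichment of 2.84 at percentile 10.3 (q = 0.00312).

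FOSB, whose protein is FOS-like and also induced early, had peaks of 2743 bp in HL-60 and 3176 bp in Molm13, and 1991 bp in OCI-AML3 and 3205 in K562 (chr19:45467995-45475179, plus strand). Fold enrichments were 7.49, 6.68, 3.29 and 3.25. These fell at percentiles 83.5, 55.9, 24.8 and 26.4, so FOSB ranked higher in HL-60 and Molm13 than in OCI-AML3 and K562. The peaks lay over or just beyond the start and reached into the gene, which they covered to between 26.9% and 32.4%.

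FOSL1 encodes FRA1, a FOS-type protein associated with invasive epithelial tumours (chr11:65892049-65900573, minus strand). Its TSS peak was 4606 bp wide in Molm13, 4370 bp in K562 and 1805 bp in OCI-AML3, with fold enrichments of 5.94, 4.29 and 3.99. HL-60 was counted as having none, but its nearest peak missed the limit by little. That peak lay 502 bp downstream of the start, was 270 bp wide and had a fold enrichment of 4.17 (q = 0.000409 from the peak caller). The absence in HL-60 thus rests on the distance limit of 500 bp.

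ATF3, a stress-induced bZIP protein that mostly represses, had narrow peaks with low fold enrichments in every line (chr1:212565334-212620777, plus strand). Widths were 1230 bp in HL-60 and 1557 bp in Molm13, and 1848 bp in OCI-AML3 and 2326 in K562, at percentiles 44.3, 36.8, 40.4 and 39.1. Fold enrichments were 3.33, 5.48, 3.26 and 2.86, at percentiles 7.89, 37.2, 23.8 and 11.3. ATF3 was the member whose peaks were below the all-gene median in width and in fold enrichment in each line. All 4 peaks lay at the canonical start, position 212608761, and none at the start furthest upstream, position 212565334. RefSeq lists its promoter 43354 bp away from the canonical start, so the ATF3 promoter under the peaks is not among the sequences searched.

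BATF, which partners JUN proteins and is known for its role in lymphocytes and dendritic cells, was marked in Molm13 and OCI-AML3 and not in HL-60 or K562 (chr14:75522455-75546993, plus strand). The TSS peak was 801 bp wide with a fold enrichment of 7.72 in Molm13, at percentile 10.6 in width and 69.4 in fold enrichment. In OCI-AML3 it was 1886 bp wide with a fold enrichment of 3.64, at percentiles 41.8 and 37.4. The peak nearest to a BATF start was 93609 bp away in HL-60 and 79413 bp away in K562. BATF thus had the narrowest TSS peak of the members in Molm13 and, in HL-60 and K562, 0 peaks within 50 kb of the gene.

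The median AP-1 gene had more peaks around it than the median protein-coding gene in each line. At least 1 peak within 50 kb of the gene body was found for 8 members in HL-60 (78.6% of protein-coding genes had one) and 9 in Molm13 (84.3%), and 9 in OCI-AML3 (84.2%) and 8 in K562 (80.6%). The total near members was 40 peaks in HL-60 and 61 in Molm13, and 67 in OCI-AML3 and 57 in K562. The median per member was 4 in HL-60 against 2 over all protein-coding genes, 7 against 3 in Molm13, 7 against 3 in OCI-AML3 and 6 against 4 in K562. Peaks covered a median of 7.81%, 16.6%, 16.3% and 10.6% of a member's window in these lines, against 1.29%, 3.05%, 3.59% and 4.31% over all genes. The comparison set here holds all protein-coding genes, also those without a TSS peak, whereas most members had one. FOSB had the most neighbours, 10, 12, 14 and 11 peaks in the same order, at or above the 93.9th percentile of protein-coding genes in each line. Many of its neighbours sat at starts of other genes, 6 in HL-60 and 8 in Molm13, and 8 in OCI-AML3 and 6 in K562. These were starts of ERCC1, VASP, RTN2 and PPM1N.

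**Figure D2:**
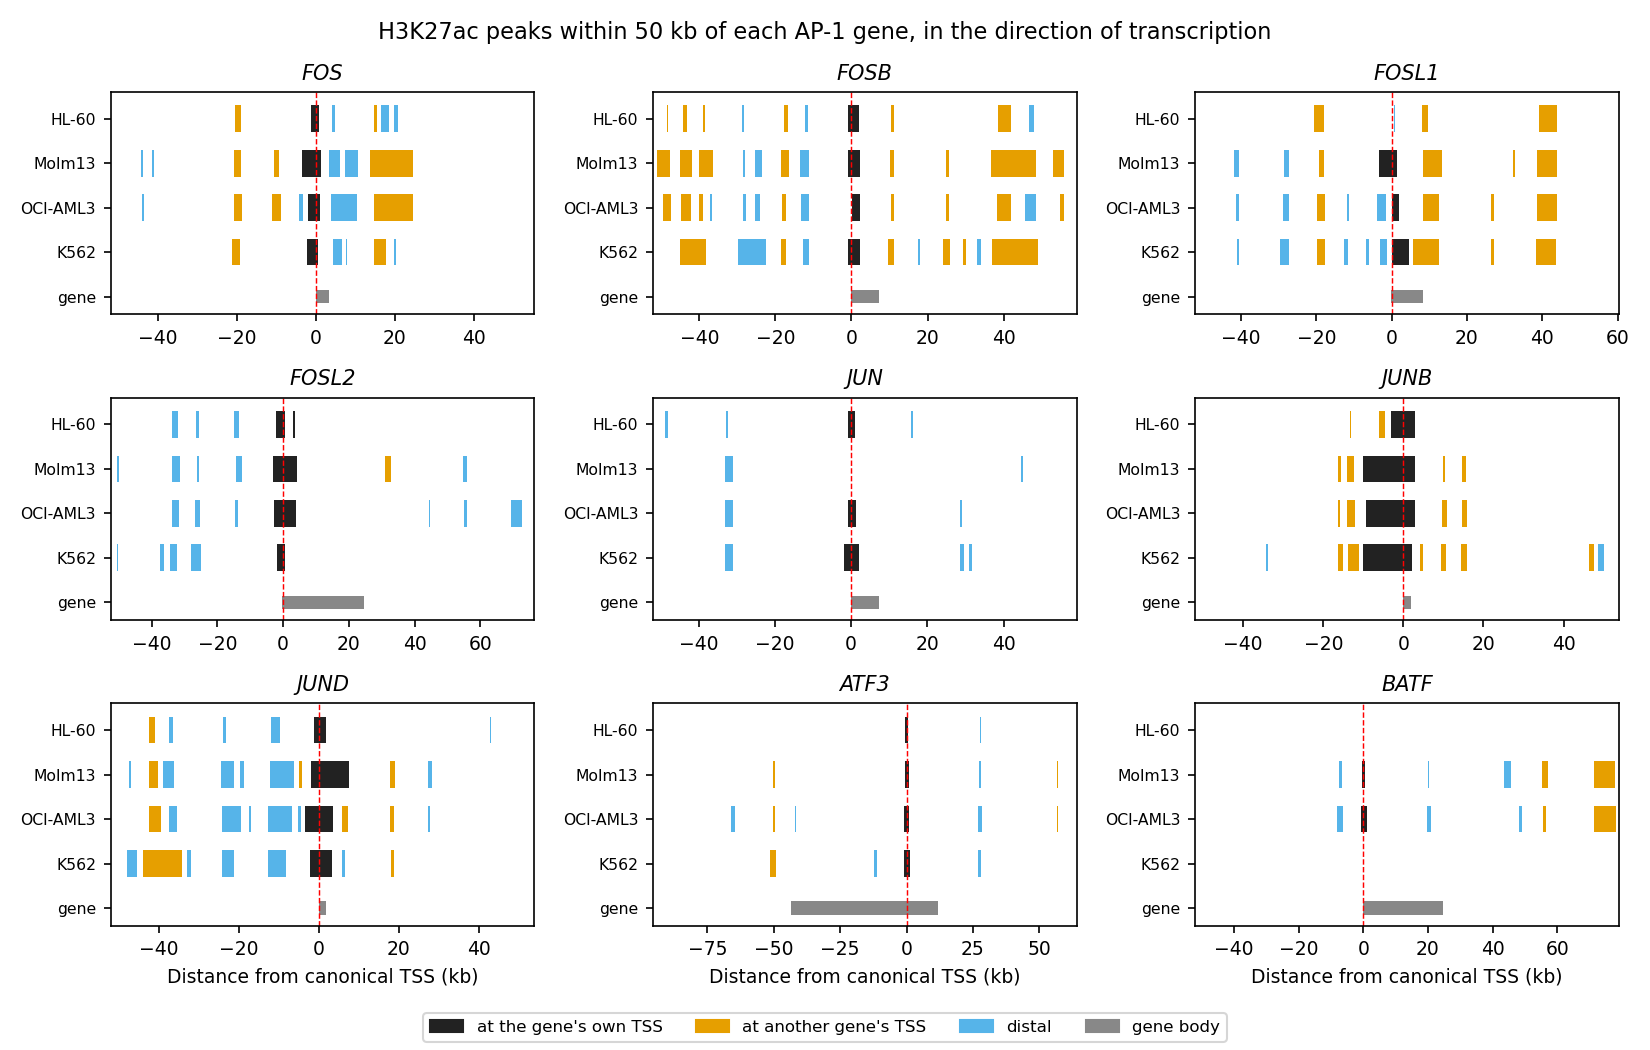
H3K27ac peaks of the 4 lines around each AP-1 gene, drawn by distance in kb from the canonical TSS (dashed line) in the direction of transcription; black bars lie at the gene's own starts, orange at starts of other genes, blue at no annotated start, and grey marks the gene body. The BATF panel has peaks in Molm13 and OCI-AML3 and 0 in HL-60 and K562, and the JUN panel has a black bar in every line but Molm13.

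Joined across lines, the peaks near members formed 81 regions. Of these, 27 were listed in all 4 lines, 11 in 3 lines, 17 in 2 lines and 26 in 1 line. By position, 9 regions lay at a member's own start, 30 at the start of another gene and 42 at no annotated start, here called distal. Among regions listed in 1 line the largest number, 12, came from K562, of which 9 were distal. Among regions in 2 lines the largest number, 12, joined Molm13 with OCI-AML3. BATF supplied 5 of these 12, including its own start. No share over all peaks is given for pairs of lines, so this count is not read as a trait of AP-1 genes.

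A larger share of the distal peaks near AP-1 genes than of all distal peaks was overlapped in every other line, a difference given as a description and not tested. Of all peaks near members, 32 of 40 in HL-60 (80.0%) were overlapped by at least 1 bp in all 3 other lines, as were 29 of 61 in Molm13 (47.5%), 29 of 67 in OCI-AML3 (43.3%) and 28 of 57 in K562 (49.1%). Over all peaks of the lists the shares were 43.5%, 25.2%, 23.7% and 23.5%. Split by position, the gap was wide for distal peaks and narrower for peaks at starts. In HL-60, 14 of 18 distal peaks near members (77.8%) recurred, beside 14.2% of all distal peaks and 21.7% of those within 50 kb of a protein-coding gene with a TSS peak in all 4 lines. In Molm13 it was 10 of 26 (38.5%), beside 6.17% and 8.46%. In OCI-AML3 it was 11 of 32 (34.4%), beside 5.73% and 8.01%, and in K562 it was 10 of 28 (35.7%), beside 5.9% and 6.58%. For peaks at starts near members and for start peaks in general the shares lay closer together, at 81.8% beside 79.7% in HL-60, 54.3% beside 58.8% in Molm13, 51.4% beside 54.4% in OCI-AML3 and 62.1% beside 53.1% in K562. The counts depended on the overlap asked for. Where peaks of each other line had to cover 50% of a peak, an alternative chosen for the split after seeing the data, 30 of the HL-60 peaks near members (75.0%) recurred, with 38.5% over all peaks. In Molm13 12 did (19.7% beside 14.8%), in OCI-AML3 14 (20.9% beside 11.7%) and in K562 13 (22.8% beside 8.39%). Of the distal peaks near members, 14 in HL-60 still recurred (77.8% beside 10.6% of all distal peaks), but in the other lines few were left, 4 in Molm13 (15.4% beside 2.31%) and 3 each in OCI-AML3 (9.38% beside 1.8%) and K562 (10.7% beside 2.57%). At starts the shares then lay below those of all start peaks in HL-60 and Molm13, at 72.7% beside 73.1% and 22.9% beside 37.0%, and above them in OCI-AML3 and K562, at 31.4% beside 28.6% and 34.5% beside 18.2%. Median widths of distal peaks near members were 764 bp in HL-60 and 1240 bp in Molm13, and 1130 bp in OCI-AML3 and 1240 in K562, against 703, 921, 1010 and 947 bp over all distal peaks. The part of width in this recurrence was not tested. A distal peak could also be overlapped by a wider peak that reached a start in another line, and neighbouring peaks of 1 gene are not independent of each other. The 14 in HL-60 included the peak 502 bp from the FOSL1 start, just past the limit. Only 9 joined distal regions were listed in all 4 lines, so some of the 14 lay in regions that reach a start.

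**Figure D3:**
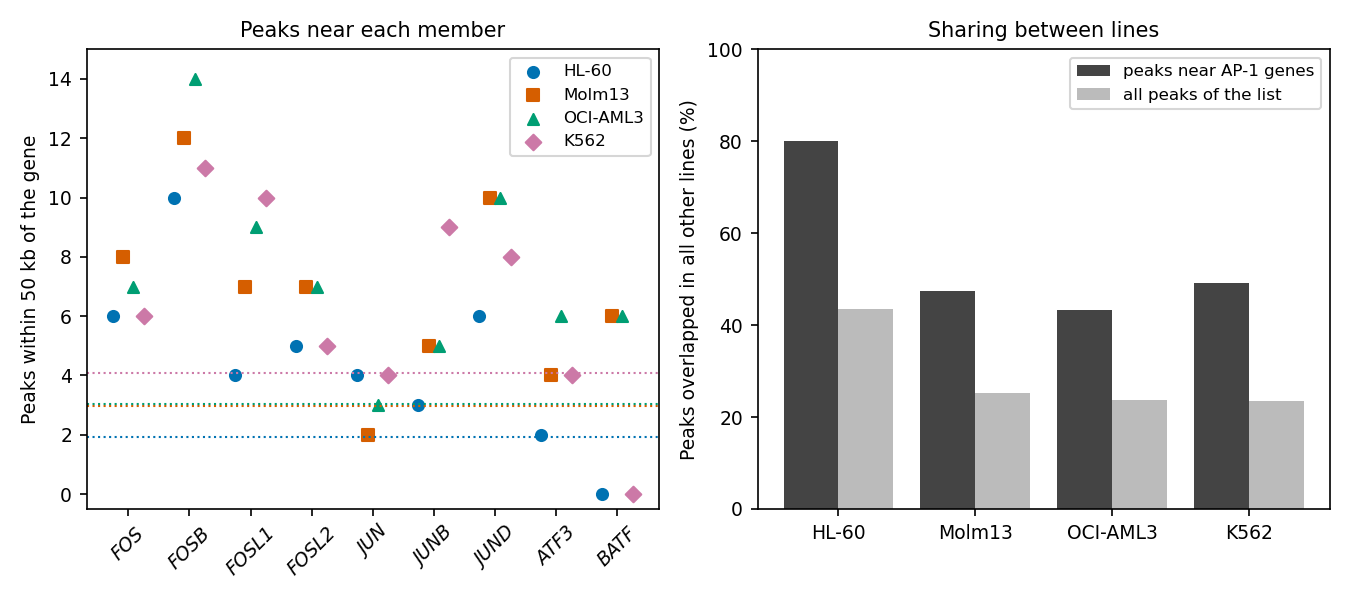
Left, number of H3K27ac peaks within 50 kb of each AP-1 gene in each line, with dotted lines at the median of all protein-coding genes; right, percentage of peaks overlapped in all 3 other lines, for peaks near AP-1 genes (dark) and for all peaks of the list (light). FOSB had 10 to 14 peaks and the dark bars stand at 80.0%, 47.5%, 43.3% and 49.1% against 43.5%, 25.2%, 23.7% and 23.5%.

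The 9 distal regions present in all 4 lines included 2 each near FOSB, FOSL2 and JUND and 1 each near FOS and JUN. The nearer JUND region had the highest fold enrichment of the 9 in HL-60, Molm13 and OCI-AML3. It lay 6.18 to 12.7 kb upstream of JUND and covered 2332 bp in HL-60 and 6128 bp in Molm13, and 6012 bp in OCI-AML3 and 4366 in K562. The fold enrichments were 5.99, 15.7, 6.07 and 4.24. In Molm13 and OCI-AML3 this element had a higher fold enrichment than the JUND promoter, which had 7.84 and 5.61. The farther one, 18.6 to 24.4 kb upstream, had fold enrichments of 3.51, 7.17, 4.94 and 4.24.

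At FOS the distal region in all 4 lines lay 3.44 to 10.8 kb downstream of the start, just behind the gene. It covered 830 bp in HL-60 and 2487 bp in K562 but 5931 bp in Molm13 and 6408 bp in OCI-AML3. Its fold enrichments were 3.2 in HL-60, 4.72 in K562, 6.68 in Molm13 and 3.61 in OCI-AML3, and the K562 value was the highest of the 9 regions in that line. The same contrast of lines appeared further on, 13.7 to 24.7 kb downstream, in a region that takes in the start of the non-coding gene LINC01220. There Molm13 had 1 peak of 10893 bp with a fold enrichment of 10.1, and OCI-AML3 had 1 peak of 9881 bp with 5.46. HL-60 had 3 separate peaks adding to 3767 bp, and K562 had 2 adding to 3577 bp. The FOS neighbourhood was covered to 25% in Molm13 and 24.0% in OCI-AML3, against 7.81% in HL-60 and 10.6% in K562.

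At FOSL2 the regions common to all 4 lines lay 31.4 to 34.4 kb and 25 to 27.9 kb upstream. Their fold enrichments were moderate, from 2.43 to 4.09 in the farther and from 3.02 to 5.08 in the nearer. Another region 12.5 to 14.8 kb upstream of FOSL2 was listed in every line but K562, with fold enrichments of 5.15, 4.16 and 2.4 in HL-60, Molm13 and OCI-AML3. K562, the line with the low FOSL2 promoter peak, thus also lacked the nearest upstream element.

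Around BATF, 5 regions were common to Molm13 and OCI-AML3 and 2 further ones were listed in 1 of these lines. The upstream element shown above covered 872 bp in Molm13 and 1892 bp in OCI-AML3, with fold enrichments of 5.36 and 3.66. An element 19.8 to 20.9 kb downstream of the start, within the gene, had fold enrichments of 3.63 and 3.41. The other common regions were the BATF start, a start of FLVCR2, a gene for a membrane transporter, and a broad region in FLVCR2 71.3 to 78.1 kb from the BATF start. This last region covered 6301 bp in Molm13 with a fold enrichment of 7.87 and 6843 bp in OCI-AML3 with 3.0. FOS lies on the same chromosome, and no peak was counted for both genes.

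K562 had the most peaks around JUNB, but those listed in K562 only had low fold enrichments. It had 9 peaks within 50 kb of JUNB, against 3 in HL-60 and 5 each in Molm13 and OCI-AML3. The 4 regions listed in K562 only included a start of MAST1 and a distal site 33.9 to 34.3 kb upstream of JUNB. Their fold enrichments ran from 2.41 to 2.83, below the median of 2.85 over the K562 list. Their q-values from the peak caller ran from 0.00155 to 0.012, so the stricter q-value setting described below would drop all 4. Regions shared by Molm13, OCI-AML3 and K562 lay at starts of PRDX2 and THSD8, of RNASEH2A and of HOOK2. Around FOSL1 the 3 regions at starts of other genes common to all 4 lines were those of CFL1 with MUS81, CCDC85B with FIBP and C11orf68 with DRAP1. Apart from the peak 502 bp from the start, no distal peak near FOSL1 was listed in HL-60, whereas 2 were common to the other 3 lines. These 2 had fold enrichments of 6.46, 3.6 and 3.99 and of 4.76, 2.61 and 2.75 in Molm13, OCI-AML3 and K562.

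The BATF promoter differed from those of most other members in base composition. RefSeq promoters were found for 8 of 9 members, and FOSL1 was not among them. GC content of the 250 bases before the start was 64.8% in FOS, 65.6% in FOSB, 69.6% in FOSL2, 62.0% in JUN, 70.8% in JUNB and 74.8% in JUND. The median over 15345 promoters was 62.4%. BATF was poorer in GC, with 43.2%, and held 5 CpG dinucleotides, an observed to expected ratio of 0.43, against 40 and 1.15 in JUND and a median ratio of 0.742 over all promoters. ATF3, at its far upstream start without a peak, had 49.2% and a ratio of 0.278. BATF, with a TSS peak in the fewest lines, thus also had the lowest GC content of the 8 promoters.

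Motifs were searched on both strands of these promoters, without overlap between the motif types. TGANTCA was in 0 of the 8 promoters and in 5.02% of all promoters. TGACNTCA was in 3, those of JUN, JUND and ATF3, and in 6.54% of all promoters. The CArG box, the site of serum response factor, was in 0 of the 8 and in 1.15% of all. Only the 250 bases before the start were searched, so a site further upstream would not be seen and a gene may still have one. TATAAA was in 3 of the 8 and in 9.23% of all, and CCAAT in 4 of the 8 and in 34.8% of all. In the 21 distal stretches shared by 2 or more lines TGANTCA was found in 6, and in the 9 shared by 4 lines it was found in 2, both near FOSB. Over the central 300 bases of all distal peaks TGANTCA occurred in 10.5% in HL-60 and 12% in Molm13, and 13.6% in OCI-AML3 and 13.8% in K562. Near members it occurred in 2 of 18, 6 of 26, 7 of 32 and 7 of 28 distal peaks. The N stands for any base. The promoter matches read TGACATCA in JUN and ATF3 and TGACGTCA in JUND, and the distal ones included TGAATCA and TGATTCA beside TGACTCA and TGAGTCA. The counts are therefore of these letter patterns and not of TRE or CRE sites. A match is a match of letters and does not show binding.

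Genes with related roles were read in the same way. Of 11 related bZIP genes, TSS peaks were found at 6 in HL-60 and 6 in Molm13, and 8 in OCI-AML3 and 7 in K562, and at 5 in all lines. Those 5 were ATF2, ATF4, ATF7, JDP2 and MAFG. Over all protein-coding genes the shares were 44.7%, 53.9%, 57.7% and 55.9% in the same order, and 40.5% in all lines. MAFG, which encodes a small MAF protein, had the widest of these peaks in each line except HL-60, with 13080 bp in K562, 11676 bp in OCI-AML3 and 11252 bp in Molm13. BATF3, the closest relative of BATF in the list, had a peak in OCI-AML3 only, 1918 bp wide, and BATF2 in K562 only, 3618 bp wide.

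Of 10 kinases and factors that act upstream of AP-1, TSS peaks were found at 7 in HL-60 and 9 in Molm13, and 10 in OCI-AML3 and 9 in K562. HL-60 lacked peaks at MAPK8 and MAPK9, which encode the JUN kinases JNK1 and JNK2, and at ELK1. Molm13 and K562 lacked a peak at MAPK10. Of 10 other immediate early genes, peaks were found at 7 in HL-60 and 10 in Molm13, and 10 in OCI-AML3 and 9 in K562. Both lists stand beside the same shares of all protein-coding genes, 44.7%, 53.9%, 57.7% and 55.9% in this order. HL-60 lacked IER3, IER5 and NR4A1, and K562 lacked EGR2. IER2 had broad peaks in every line, of 6020, 9062, 9192 and 7310 bp, and ZFP36, whose product destabilises messenger RNA, ranged from 853 bp in HL-60 to 16506 bp in Molm13.

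For each of these lists the share of distal peaks overlapped in every other line was below that near AP-1 genes. For HL-60 it was 7 of 15 near other immediate early genes (46.7%), for Molm13 6 of 37 (16.2%), for OCI-AML3 6 of 34 (17.6%) and for K562 6 of 38 (15.8%). Near related bZIP genes the shares were 20.0%, 12%, 6.9% and 9.09%. Near the upstream kinases and factors they were 11.8%, 4.0%, 9.52% and 5.88%. Near the myeloid markers 0 of 16, 0 of 23, 0 of 21 and 0 of 12 distal peaks recurred, and near the erythroid markers 0 of 2, 0 of 3, 0 of 2 and 0 of 20. Both marker lists were picked to differ between lineages, so they are not read as a contrast to the AP-1 genes. The difference between the lists was not tested.

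The binding of dCas9 in K562 cells with sgRNAs against LTR2B, a family of endogenous retroviral long terminal repeats, was listed for a separate library. It had 0 peaks within 50 kb of any AP-1 gene. The share of all protein-coding genes near a dCas9 peak was not computed, so this count is not read as a trait of AP-1 genes. The nearest dCas9 peak was 0.362 Mb from JUNB, 0.554 Mb from FOSB, 0.631 Mb from FOSL1 and 0.871 Mb from ATF3. For the other 5 genes the distance ran from 1.36 Mb for FOSL2 to 9.57 Mb for BATF.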

How the data were processed

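ChIP-seq peak lists of 5 samples were used, 4 for H3K27ac and 1 for dCas9. Samples were grouped by their titles, with 1 library per group, so no SD and no test between lines are given. Per the labels and the study's methods, the authors trimmed reads with Trim Galore 0.4.5, aligned them to hg38 with Bowtie2 2.3.4, kept uniquely mapped reads and called peaks with MACS2 2.1.1 at a q-value of 0.05, with the broad option for H3K27ac. The control library given to the caller is not given in the sources used here. Keeping unique reads lowers signal over near-identical repeats.

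For each peak the deposited lists hold its position and 4 values. The deposited score is the −log10 q-value multiplied by 10, and the deposited fold enrichment is a ratio to the local background. The deposited p-value and q-value are each written as −log10. In the dCas9 list the authors also gave the summit position. Fold enrichments were used only within a list. Depending on the list, 5.46% to 15.0% of H3K27ac peaks exceeded a q-value of 0.05. Read totals were not in these lists, so intervals based on reads could not be given.

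Genes and starts came from GENCODE v44 and positions are 1-based. A TSS peak lay within 500 bp of any annotated start of the gene, and a near peak within 50 kb of its body. Percentiles are ranks among protein-coding genes with a TSS peak in that list, with ties at mid-rank. Overlaps needed 1 bp. The 9 members were all named, with genes of the lists of related genes and genes whose starts lay at a near peak, and the 3 genes nearest to JUNB, the member with the highest mean width percentile, by Euclidean distance between width percentiles. The members and lists were chosen with earlier results of these data known, and the split of recurrence into distal and start peaks, with its comparison sets, was made after the values had been seen. Software comprised pandas 2.3.3 and NumPy 2.4.6 under Python 3.11.15, pysam 0.24.0 and matplotlib 3.10.9. Overlap counts were checked against bedtools 2.31.1 and on simulated peaks. Single items within the lists and regions counted are not reported here.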

Additional observations from a re-analysis of the deposited data

How the results depend on the processing

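Counts were recomputed with starts sought within 100 or 1000 bp or at the canonical TSS only, with windows of 25 or 100 kb or 50 kb around the canonical TSS, with q-values below 0.05 or 0.001, with each list cut to the 20814 strongest peaks by q-value, with peaks joined within 1 kb, and with 50% of a peak covered by peaks of the other line. Of 84 recomputed counts, 65 stayed within 1.5 times the reported value. The number of members with a TSS peak moved by at most 1. At 1000 bp FOSL1 gained its HL-60 peak, at 100 bp it lost its K562 peak, and below q 0.001 FOSL2 lost its K562 peak and ATF3 its HL-60 peak. JUN in Molm13 and BATF in HL-60 and K562 had no TSS peak under any of these settings, but none of the settings could have supplied one. Their nearest peaks lay 31122, 93609 and 79413 bp from a start, beyond the widest limit of 1000 bp, and stricter lists only drop peaks. These absences were therefore not put to a test. Settings of distance, q-value and list length keep or drop a peak but cannot alter its width or fold enrichment. Joining peaks within 1 kb changed none of the counts and none of these values. The unchanged widths and fold enrichments of kept peaks therefore do not show that these values are stable.

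With windows of 25 kb, near peaks fell to 26 in HL-60 and 37 in Molm13, and with 100 kb they rose to 64 in HL-60 and 99 in Molm13, and 102 in OCI-AML3 and 88 in K562. Below q 0.001, near peaks fell to 25 in HL-60, and near peaks found in all other lines fell to 21 in HL-60 and to 18 each in Molm13 and OCI-AML3. With 50% coverage the latter count was 12 in Molm13, 13 in K562 and 14 in OCI-AML3. For its split by position, an alternative chosen after seeing the data, it left 4 distal peaks and 8 at starts in Molm13, 3 and 11 in OCI-AML3, and 3 and 10 in K562. These moves follow from the settings themselves, which admit fewer or more peaks. No paired analysis was possible because each line had 1 library with a list. Unknown depth limits every absence reported here: a missing peak says that none was called, not that the mark was absent.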
